A study of Mus musculus with 56 samples.

Results

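The 6 genes Cxcl1, Cxcl2, Cxcl3, Cxcl5, Ppbp and Pf4 encode CXC chemokines that attract neutrophils or are stored in platelets. They were picked by gene symbol, each symbol matched 1 row in both deposited tables, and the tables share 49045 gene identifiers. All 6 passed the filter on low counts in every tissue. RNA was sequenced from monocytes/macrophages sorted out of injured mouse tissue, in 56 libraries. The depleted arm was Foxp3(DTR/GFP) mice, called FDG, which carry a diphtheria toxin receptor under Foxp3, the gene that marks regulatory T cells. The control arm was wild-type C57BL/6J mice without that allele. Mice of both arms were 10 weeks old and received the toxin at 20 ng/g, so all groups share age and toxin. The allele and the loss of regulatory T cells cannot be told apart. Each mouse had 1 injury, which was a myocardial infarction (heart), a cranial defect (bone), a volumetric loss of muscle or a punch through the full thickness of the skin. For heart and for muscle there were 3 depleted and 3 control libraries at day 4 after injury, and the same numbers at day 7. For skin each arm had 4 libraries at either of these days. The bone libraries are labelled day 7 (5 per arm) and day 10 (3 per arm), although the series text names days 4 and 7 for all tissues. The labels do not say whether a library came from 1 mouse or a pool, so p-values measure only the spread between these libraries.

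CXCL1, CXCL2, CXCL3 and CXCL5 are made by macrophages and stromal cells on inflammatory signals such as interleukin-1 and tumour necrosis factor, and they draw neutrophils into injured tissue through the receptor CXCR2. PPBP is released by platelets as a precursor that proteases trim to a further CXCR2 ligand. PF4, platelet factor 4, lies in platelet granules, binds heparin and lacks the short motif that CXCR2 ligands carry, and its gene is also transcribed in some mouse macrophages.

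The genes sit in 1 cluster of 146.6 kb on mouse chromosome 5 (GRCm38), all on the plus strand. In order along the chromosome, Cxcl5 (ENSMUSG00000029371) spans bases 90759360 to 90761624, Ppbp (ENSMUSG00000029372) 90768518 to 90770063 and Pf4 (ENSMUSG00000029373) 90772435 to 90773383. Cxcl3 (ENSMUSG00000029379) follows at 90786103 to 90789600, Cxcl1 (ENSMUSG00000029380) at 90891241 to 90893115 and Cxcl2 (ENSMUSG00000058427) at 90903871 to 90905938. Cxcl15, which was not chosen, lies between Cxcl3 and Cxcl1. Promoter sequences from RefSeq (GRCm38.p6, plus strand) were found for 5 of the 6 genes, all but Cxcl5. A stretch of 150 bases is shown of each, with a word marked that was picked because the 3 neutrophil attractants shown share it. That they hold it was thus fixed by the choice. Its absence from the 2 platelet chemokines, which were not used to pick it, is no test of a contrast. Capitals mark GGGAATTTCCC, which is the longest word of 11 bases that Cxcl1, Cxcl2 and Cxcl3 share, a TATA-like element (ATAAAA) and an ETS core (ACTTCC). Both strands were searched, so TTTTAT is the TATA-like element on the other strand, and no 2 marked elements overlap.
Cxcl1 (chr5:90891095-90891244): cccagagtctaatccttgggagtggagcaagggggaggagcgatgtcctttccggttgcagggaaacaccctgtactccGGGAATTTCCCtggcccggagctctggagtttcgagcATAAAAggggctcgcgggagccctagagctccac
Cxcl2 (chr5:90903749-90903898): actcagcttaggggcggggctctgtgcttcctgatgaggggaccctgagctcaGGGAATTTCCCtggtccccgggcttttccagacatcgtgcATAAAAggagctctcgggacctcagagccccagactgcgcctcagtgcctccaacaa
Cxcl3 (chr5:90785951-90786100): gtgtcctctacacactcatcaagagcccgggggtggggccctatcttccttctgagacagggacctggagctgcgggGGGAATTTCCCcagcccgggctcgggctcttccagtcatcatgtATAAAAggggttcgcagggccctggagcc
Ppbp (chr5:90768368-90768517): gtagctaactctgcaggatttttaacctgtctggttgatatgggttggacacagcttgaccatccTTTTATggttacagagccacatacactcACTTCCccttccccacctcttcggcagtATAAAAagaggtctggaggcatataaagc
Pf4 (chr5:90772285-90772434): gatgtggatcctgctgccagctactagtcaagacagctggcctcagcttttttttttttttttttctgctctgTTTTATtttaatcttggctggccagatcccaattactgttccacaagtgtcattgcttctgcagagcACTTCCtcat
The shared word, which has the letters of a kB site as bound by NF-kB family factors, began 71 bases before the RefSeq start of Cxcl1, 97 before that of Cxcl2 and 73 before that of Cxcl3. For these 3 genes the RefSeq start is not the first base of the gene span given above. The stretches of Cxcl1 and Cxcl2 end inside those spans, so the distances depend on the start used. It was found in 14 of 32851 RefSeq promoters (250 bases before the start), or 0.0426%, and these include the 3 promoters it was picked from. ATAAAA was present in 17% of promoters, among them all 5 shown. ACTTCC was in 19.7%, among them Ppbp and Pf4. AGATAA, a site of GATA factors, was in 9.99% and in none of the 5. These matches describe letters only.

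Library totals were 3013776 to 5392932 counts for skin, 3439692 to 6397434 for muscle, 2318268 to 5835113 for bone and 2642452 to 9788811 for heart. Levels are given as CPM, the count scaled to a common library total, which compares 1 gene across libraries and not different genes. The monocyte and macrophage marker list, with Adgre1, Csf1r and Cd68 among its 10 genes (9 in the heart table), had no gene at 0 in any group, and its summed group means were 10230 to 32340 CPM. Heart libraries come from a separate table and are ordered on their own, and they carry names in place of replicate numbers (F and W at day 4, FDG and WT at day 7, for depleted and control). Reads of Cxcl2 and Cxcl3 were partly divided between the 2 genes in the bone, muscle and skin table. Their counts there were not whole numbers (tolerance 0.01) in 43 and 42 of 44 libraries, while their sum was not whole in only 2. Of the 31-base words of their transcripts, 7.59% of those of Cxcl2 and 5.46% of those of Cxcl3 also occur in another gene, which does not bound the error of their values. By group mean Cxcl3 was 1.53% to 4.07% of the sum of both in muscle, 5.56% to 9.04% in skin and 8.61% to 12.6% in bone, and how much of a Cxcl3 value is reads of Cxcl2 was not tested. The sum of both, added after the data were seen, is given beside calls of either gene.

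Cxcl2, which encodes the attractant also known as MIP-2, spanned 36.3-fold between its highest and lowest group mean in bone, muscle and skin. Its means ran down from 6631 ± 1050.4 CPM in control skin at day 7 (SD, n = 4) over 5874 ± 1445 and 5808 ± 1658 CPM in depleted and control skin at day 4. Next came depleted skin at day 7 at 2816 ± 625 CPM and the muscle and control bone groups between 747 and 1620 CPM. Depleted bone was lowest, at 496 ± 22.9 CPM at day 10 (n = 3) and 183 ± 103 CPM at day 7 (n = 5). Apart from neighbours by ranges that did not overlap were depleted skin at day 7 and both depleted bone groups. Heart held 1516 to 2831 CPM by group mean, a span of 1.87-fold.

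Cxcl1 and Cxcl3 had the same 4 skin groups on top. Cxcl1 was at 163 to 352 CPM by group mean in skin, 31.4 to 65.4 CPM in muscle, 41.0 CPM in depleted and 90.4 CPM in control bone at day 10, and 13.7 CPM in depleted and 59.9 CPM in control bone at day 7. Cxcl3 had group means of 265 to 616 CPM in skin, then of 21.1 to 132 CPM in bone and of 23.2 to 42.0 CPM in muscle. Most neighbours in these 2 orders overlapped in range. Only the lowest Cxcl1 group, depleted bone at day 7, was apart from the group above it. Cxcl5, an attractant best known from epithelial cells, was scarce. Its highest mean was 34.9 ± 24.9 CPM in control bone at day 10, and its lowest were 0.869 and 0.527 CPM in depleted muscle at days 7 and 4.

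Pf4 was highest at day 4, at 2042 ± 494 CPM in control skin (n = 4) and 1979 ± 459.7 CPM in control muscle (n = 3), and lowest in depleted bone, at 136 ± 50.4 CPM at day 10 and 83.2 ± 49.9 CPM at day 7. Ppbp followed a like order at lower CPM, from 65.1 ± 19.2 CPM in control skin at day 4 to 2.28 ± 1.48 and 1.47 ± 1.04 CPM in depleted bone at days 10 and 7. In heart, Pf4 had group means of 1086 to 2446 CPM and Ppbp of 8.16 to 99.5 CPM. For both genes skin and muscle at day 4 overlapped in range.

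**Figure D1:**
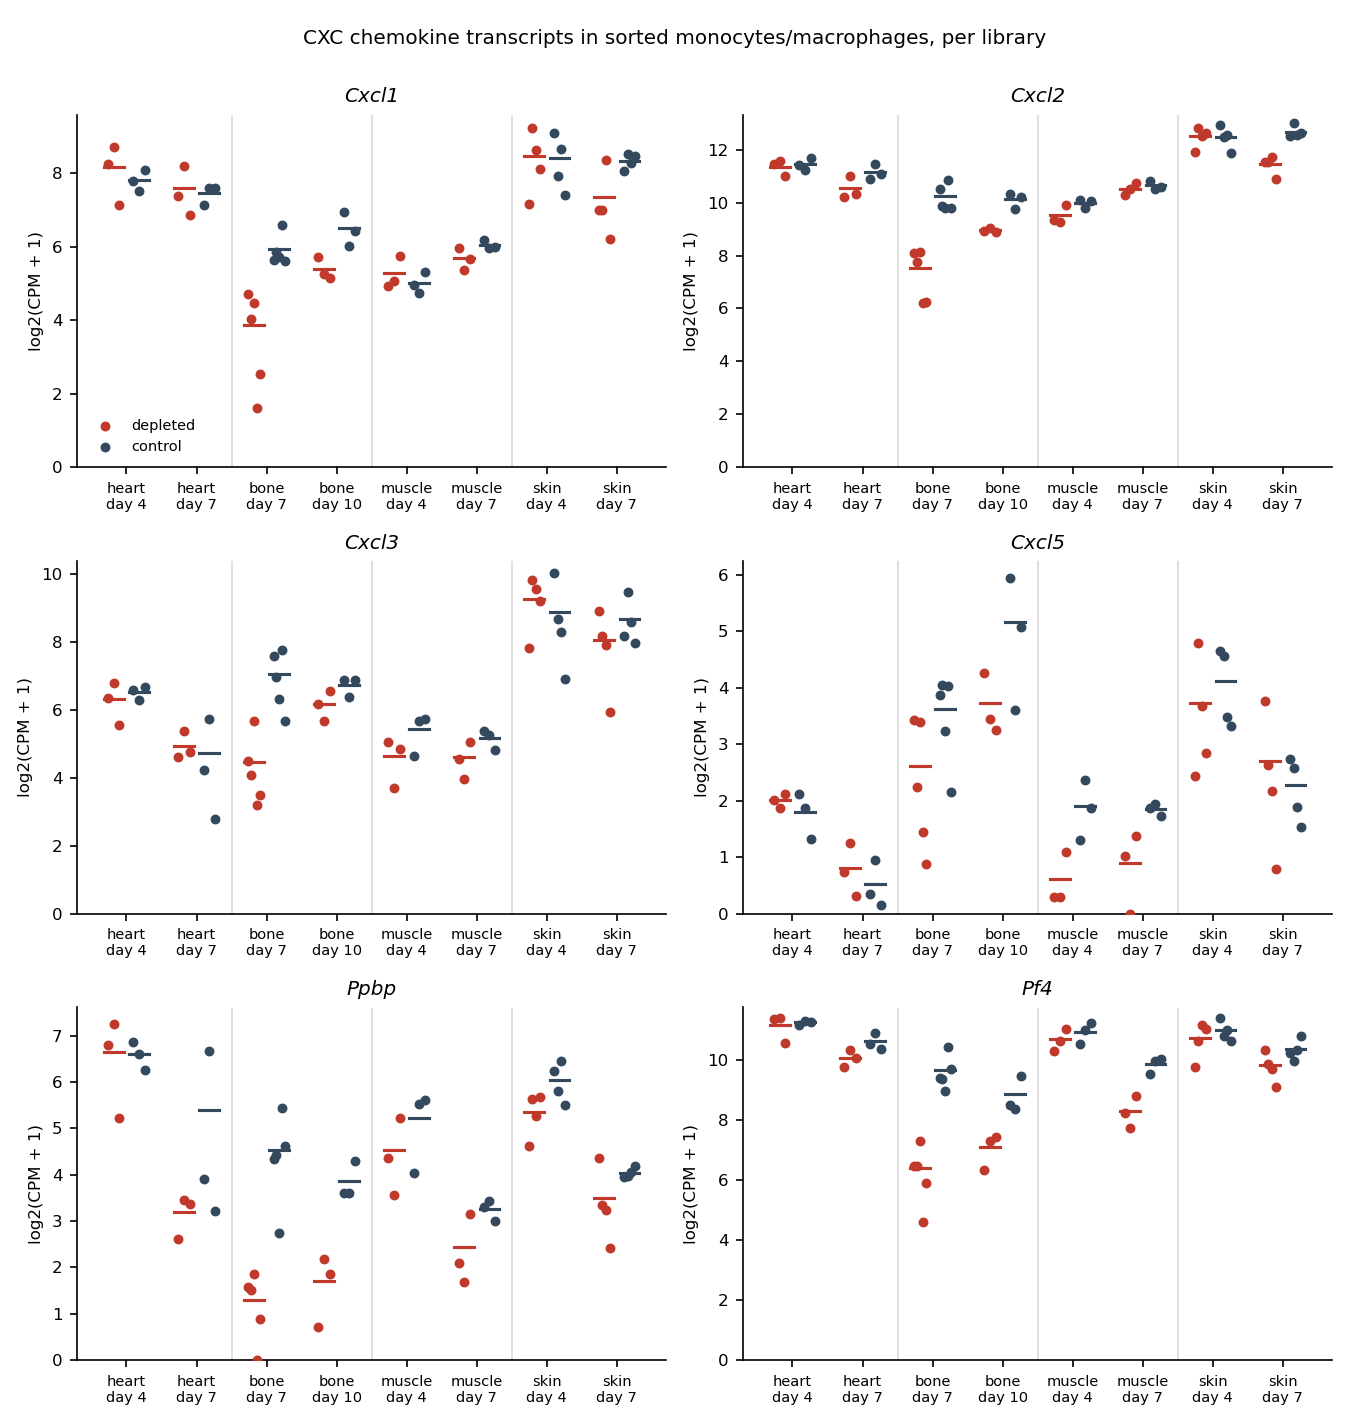
Level of each chemokine gene in each library, as log2(CPM + 1), by tissue and day (x axis), with depleted libraries left of control libraries and a bar at log2(mean CPM + 1). Depleted bone at day 7 has the lowest group mean of Cxcl1, Cxcl2, Cxcl3, Ppbp and Pf4 among the bone, muscle and skin groups, and skin has the highest Cxcl1, Cxcl2 and Cxcl3.

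In injured bone at day 7, 5 of the 6 chemokine genes were lower in depleted than in control cells, and none was higher. Of all 12709 genes tested there, 12.6% were called lower. A gene was called where its p from edgeR's quasi-likelihood test, adjusted by Benjamini and Hochberg over all genes tested, was below 0.05. The median log2 change of the 6 genes was -2.71, beside 0.00 for all genes tested.

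Pf4 and Ppbp, the platelet chemokines, had the largest changes of the 6. Pf4 stood at 87.5, 88.2, 159, 23.1 and 58.4 CPM in the 5 depleted bone libraries of day 7 and at 677, 658, 499, 1394 and 831 CPM in the 5 control libraries. Every depleted library lay below every control library, and the lowest control was over 3 times the highest depleted value. The log2 change was -3.32 (SE 0.50, adjusted p = 0.000333), a 10.0-fold lower level. Ppbp was at 1.99, 1.85, 2.64, 0 and 0.847 CPM in depleted libraries and 19.4, 20.5, 5.69, 42.3 and 23.7 CPM in control libraries. Again the arms did not overlap, and depleted replicate 4 had no Ppbp count, which allows up to 0.514 CPM (3 counts of its total). Its log2 change was -3.94 (SE 0.57, adjusted p = 7.14e-05), 15.3-fold lower.

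Among the attractants, Cxcl2 was at 273, 214, 280.1, 72.2 and 74.1 CPM in depleted bone and 1459, 933, 890.5, 1866 and 891 CPM in control bone. The lowest control library held about 3 times the highest depleted one. Its log2 change was -2.76 (SE 0.41, adjusted p = 0.0003). Cxcl1, known as KC, was at 25.2, 15.4, 21.1, 2.06 and 4.80 CPM in depleted libraries, against 48.9, 56.7, 51.5, 94.9 and 47.4 CPM in control libraries (log2 change -2.16, SE 0.50, adjusted p = 0.00584). The arms were apart here too, with depleted replicates 4 and 5 lowest, as they were for Cxcl2 and Cxcl3. Cxcl3 was at 21.4, 15.8, 49.8, 8.18 and 10.3 CPM in depleted and at 191, 124, 78.6, 215 and 49.9 CPM in control libraries (log2 change -2.66, SE 0.52, adjusted p = 0.00209). Depleted replicate 3 and control replicate 5 nearly met, and the other 4 control libraries were above all depleted ones. The sum of Cxcl2 and Cxcl3 changed by -2.75 (SE 0.42, adjusted p = 0.000333).

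Cxcl5 was the exception in bone at day 7. Its depleted libraries held 9.75, 3.71, 9.55, 1.71 and 0.847 CPM and its control libraries 13.7, 15.6, 8.39, 15.3 and 3.45 CPM. The arms overlapped, and the log2 change of -1.18 (SE 0.59) did not pass (adjusted p = 0.17). A two-sided exact permutation test of the mean CPM gave p = 0.00794 for each of the 5 called genes, the smallest that 5 against 5 allows, and 0.0952 for Cxcl5. The 5 calls held without any 1 of the 10 libraries. Rn18s-rs5, a ribosomal RNA gene, was at 73310 ± 22530 CPM in depleted and 34450 ± 25370 CPM in control bone at day 7, and with its log2 CPM as a covariate the 5 calls also held (adjusted p of 0.00611 to 0.0387).

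At day 10 in bone, all 6 log2 changes were below 0 and 1 gene, Ppbp, was called lower, where 8.22% of genes were. Ppbp was at 0.650, 3.55 and 2.63 CPM in depleted libraries and 11.1, 11.1 and 18.6 CPM in control libraries (log2 change -2.47, SE 0.75, adjusted p = 0.0316). The arms did not overlap. This call was lost without depleted replicate 1 or 3 or control replicate 2 or 3 (adjusted p of 0.0554 to 0.121), by limma-voom (adjusted p = 0.114) and with the Rn18s-rs5 covariate (adjusted p = 0.427), where Rn18s-rs5 was at 85310 CPM in depleted and 21280 CPM in control cells. Pf4 was at 79.0, 155 and 174 CPM in depleted and 366, 333 and 707 CPM in control libraries, also apart, with a log2 change of -1.69 (SE 0.60) and an adjusted p of 0.0729. DESeq2 and limma-voom called it (adjusted p = 0.0255 and 0.0308). Cxcl2 was at 484, 522 and 481 CPM in depleted libraries, against 1287, 867 and 1196 CPM in control libraries. Those ranges did not overlap, while the log2 change of -1.07 (SE 0.50) had an adjusted p of 0.167. Cxcl1 was also apart, at 34.2 to 51.4 CPM in depleted and 63.9 to 122 CPM in control libraries (adjusted p = 0.268), and Cxcl3 and Cxcl5 overlapped. Cxcl2 and Cxcl3 summed changed by -1.002 (SE 0.51, adjusted p = 0.198). With the day 10 groups fitted alone, Cxcl1, Cxcl2, Ppbp and Pf4 passed (adjusted p of 0.000542 to 0.00997).

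In muscle at day 7, Pf4 was the 1 gene called, lower, where 3.92% of 12907 genes were called lower. It was at 298, 210.4 and 448 CPM in depleted libraries and 744, 1013 and 1057 CPM in control libraries (log2 change -1.44, SE 0.29, adjusted p = 0.00532). The arms did not overlap, and the call held without any 1 library, but not with no filter on low counts (adjusted p = 0.0825). Cxcl2 did not follow it. Its 1249, 1487 and 1715 CPM in depleted and 1829, 1464 and 1568 CPM in control libraries overlapped (log2 change 0.00, SE 0.19, adjusted p = 0.998). Cxcl1 and Cxcl5 had ranges apart and lower in depleted cells without passing (adjusted p = 0.613 and 0.288). The Cxcl1 ranges nearly met, at 40.45 to 61.4 CPM in depleted and 61.8 to 72.0 CPM in control libraries (log2 change -0.24). Cxcl5 was at 0 to 1.58 CPM in depleted and 2.33 to 2.84 CPM in control libraries. At day 4 in muscle no chemokine gene was called by edgeR, DESeq2 or limma-voom, where 0.155% of genes were called in either direction, and 3 had an unadjusted p below 0.05. Cxcl5, at 0.232, 0.229 and 1.12 CPM in depleted and 1.45, 4.13 and 2.66 CPM in control libraries, was apart by range (log2 change -2.27, SE 0.74, adjusted p = 0.36).

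In skin at day 7, Cxcl2 was the 1 gene called, lower, where 3.27% of 12616 genes were called lower. The 4 depleted libraries held 2968, 2976, 3392 and 1926 CPM and the 4 control libraries 5972, 8193, 6057 and 6303 CPM. No depleted library came near a control library. The log2 change was -1.21 (SE 0.22, adjusted p = 0.00134), it held without any 1 library, and the sum of Cxcl2 and Cxcl3 changed alike (-1.16, SE 0.24, adjusted p = 0.0059). Cxcl1 was at 127, 127, 325 and 72.6 CPM in depleted and 266, 369.7, 309 and 352 CPM in control skin at day 7. Depleted replicate 3 alone reached the control range, and the log2 change of -0.97 (SE 0.51) did not pass (adjusted p = 0.355). Pf4 and Ppbp overlapped between the arms (adjusted p = 0.447 and 0.457). At day 4 in skin no chemokine gene was called by edgeR, DESeq2 or limma-voom, where 3.57% of genes were called in either direction, and 1, Ppbp, had an unadjusted p below 0.05. Cxcl2 then lay at 3928 to 7374 CPM in depleted and 3731 to 7777 CPM in control skin.

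In the infarcted heart no chemokine gene was called at day 4 or at day 7 by edgeR, where 11.1% and 3.14% of 11339 genes were called in either direction at these days. At day 4, 0 genes had an unadjusted p below 0.05 and DESeq2 and limma-voom called 0. At day 7, 3 had one (Cxcl2, Ppbp and Pf4), DESeq2 called 1 (Cxcl2, adjusted p = 0.0447) and limma-voom 0. Pf4 was then at 879, 1303 and 1076 CPM in depleted and 1501, 1939 and 1329 CPM in control libraries, which did not overlap (log2 change -0.59, SE 0.20, adjusted p = 0.111). Cxcl2 was at 1198, 2060.5 and 1290.4 CPM in depleted and 1905, 2868 and 2151 CPM in control libraries (log2 change -0.65, SE 0.21, adjusted p = 0.115), and without depleted library FDG2 it passed (adjusted p = 0.0221). Together Cxcl2 and Cxcl3 changed by -0.63 (SE 0.22, adjusted p = 0.123). Ppbp in control heart rested on 1 library. It was at 5.14, 10.00 and 9.33 CPM in depleted libraries and at 13.9, 100.3 and 8.30 CPM in control libraries, the high one being WT3.

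**Figure D2:**
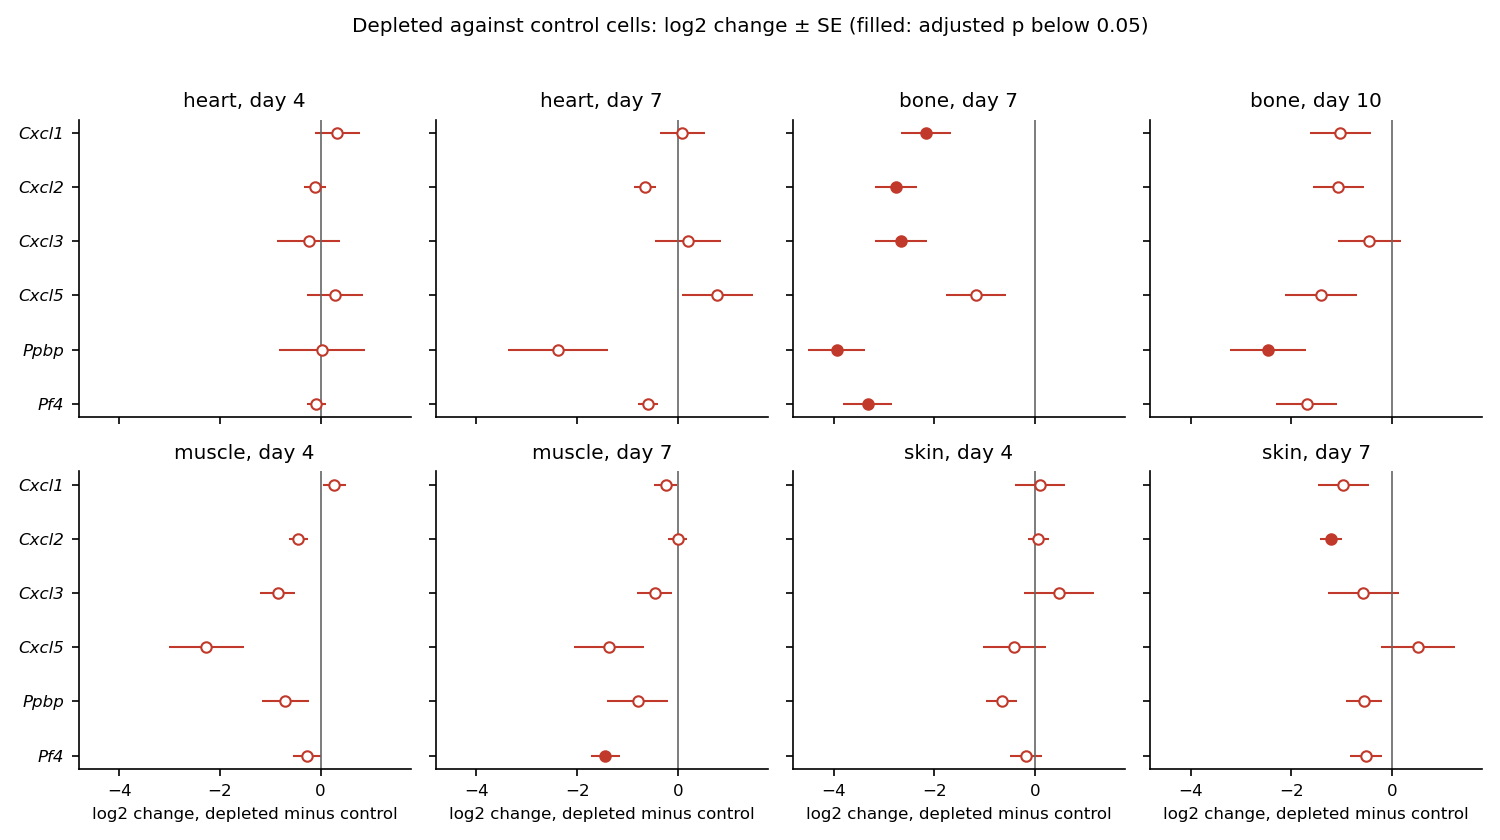
Log2 change of each chemokine gene, depleted minus control (x axis), with its SE as a bar, in the 8 pairs of tissue and day, from edgeR. Filled points have an adjusted p below 0.05, and 5 of the 8 filled points are in bone at day 7, where Cxcl5 is open.

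Whether the depletion difference depended on tissue was tested as an interaction at the shared day 7 in the bone, muscle and skin table. For bone against muscle, 3 of 6 genes had a larger fall in bone, where 5.19% of 14340 genes were called lower. The differences of log2 changes were -2.76 for Cxcl2 (SE 0.47, adjusted p = 0.000179), -3.13 for Ppbp (SE 0.86, adjusted p = 0.0169) and -1.87 for Pf4 (SE 0.60, adjusted p = 0.0473). That of Pf4 was lost without any 1 library other than depleted bone replicate 3, control bone replicate 2 or 3, or depleted muscle replicate 2 (adjusted p up to 0.172) and that of Ppbp without depleted muscle replicate 3 (adjusted p = 0.149). For bone against skin the same 3 genes had a larger fall in bone, where 5.58% were called lower. Cxcl2 differed by -1.53 (SE 0.43, adjusted p = 0.0183), Ppbp by -3.35 (SE 0.75, adjusted p = 0.00281) and Pf4 by -2.77 (SE 0.56, adjusted p = 0.00109), and these held without any 1 of 18 libraries. For the sum of Cxcl2 and Cxcl3 the differences were -2.74 against muscle (SE 0.49, adjusted p = 0.000291) and -1.57 against skin (SE 0.44, adjusted p = 0.0193). The 2 contrasts share the bone libraries. Cxcl1 and Cxcl3 differed by -1.17 to -2.20 in them without passing (adjusted p of 0.0981 to 0.28), but Cxcl3 passed in both without depleted bone replicate 3 (adjusted p = 0.046 and 0.0248) and against skin without depleted skin replicate 4 (adjusted p = 0.0431). Between muscle and skin no gene was called at day 7 or day 4 by edgeR or DESeq2 (backgrounds of 2.78% and 0.265%), with 1 and 0 genes at an unadjusted p below 0.05.

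Control cells themselves differed between the tissues in the attractants. At day 7, Cxcl1, Cxcl2 and Cxcl3 were lower in bone than in skin, where 14.1% of genes were called lower. Their log2 differences, bone minus skin, were -2.47 (SE 0.45, adjusted p = 7.16e-05), -2.50 (SE 0.31, adjusted p = 1.31e-07) and -1.66 (SE 0.54, adjusted p = 0.022), the last lost without control bone replicate 3 or 5 or control skin replicate 2 (adjusted p of 0.0558 to 0.111). The sum of Cxcl2 and Cxcl3 differed by -2.43 (SE 0.32, adjusted p = 3.89e-07). The same 3 were lower in muscle than in skin at day 7, where 6.76% were, by -2.38, -2.10 and -3.60 (adjusted p of 0.000145 to 0.00242). At day 4 these 3 and Cxcl5 were lower in muscle than in skin, where 6.77% were. The sum differed by -2.16 at day 7 (adjusted p = 0.000167) and by -2.61 at day 4 (adjusted p = 9.7e-06). Cxcl5 was at 1.45, 4.13 and 2.66 CPM in control muscle and 24.1, 22.7, 10.2 and 8.96 CPM in control skin, which did not overlap (log2 difference -2.58, SE 0.74, adjusted p = 0.0175). Without control muscle replicate 1 or 3 its adjusted p was 0.104 or 0.0745. Pf4 and Ppbp were called in none of the 4 tissue comparisons of control cells (log2 differences of -0.92 to 1.39). Without control bone replicate 4, Pf4 passed as lower in bone than in skin (adjusted p = 0.0414), and without replicate 3, Ppbp passed as higher in bone than in muscle (adjusted p = 0.0277). Between bone and muscle only Cxcl3 was called, higher in bone (log2 difference 1.94, SE 0.66, adjusted p = 0.0455, where 6.28% were higher), and this was lost without control bone replicate 1, 2 or 4 or any control muscle library (adjusted p up to 0.147). The sum of Cxcl2 and Cxcl3 had a log2 difference of -0.28 (SE 0.34, adjusted p = 0.667), below 0 where that of Cxcl3 was above. Cxcl3 was 9.42% of this sum in control bone and 2.11% in control muscle at day 7. The sum thus mostly follows Cxcl2 and cannot decide the Cxcl3 call.

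With time after injury Ppbp fell in skin and muscle in both arms and in depleted heart, and Pf4 fell in heart and muscle in both arms. Ppbp in skin was at 19.5, 9.10, 8.50 and 4.34 CPM in depleted cells at day 7 and 23.7, 48.6, 37.7 and 50.3 CPM at day 4 (log2 change -2.01, SE 0.34, adjusted p = 0.00286). In control skin it was at 14.4, 14.6, 15.7 and 17.1 CPM at day 7 and 74.5, 54.8, 86.9 and 44.1 CPM at day 4 (log2 change -2.11, SE 0.33, adjusted p = 0.00205). In both arms every day 7 library lay below every day 4 library. Of all genes, 1.25% were called lower in depleted skin and 0.848% in control skin. Cxcl2 was the other gene called in depleted skin, with a log2 change of -1.11 (SE 0.22, adjusted p = 0.00685), while in control skin it changed by 0.17 (SE 0.21, adjusted p = 0.805). Its sum with Cxcl3 changed by -1.13 in depleted (adjusted p = 0.0152) and 0.14 in control skin (adjusted p = 0.864). The interaction of arm and day for Cxcl2 was -1.28 (SE 0.30) and did not pass (adjusted p = 0.0518), nor did that of the sum (-1.27, SE 0.34, adjusted p = 0.0906). DESeq2 called it (adjusted p = 0.00473), and so did edgeR without depleted day 4 replicate 1, depleted day 7 replicate 3 or control day 4 replicate 1 (adjusted p of 0.0074 to 0.0432). For Cxcl2 in depleted cells, day 7 and day 4 did not overlap. Pf4 in skin had log2 changes of -0.99 in depleted cells (SE 0.33, adjusted p = 0.146, and 0.0165 without day 4 replicate 1) and -0.65 in control cells (SE 0.32, adjusted p = 0.407).

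In muscle, Pf4 was at 298, 210.4 and 448 CPM in depleted cells at day 7 and at 1264, 1586 and 2102 CPM at day 4 (log2 change -2.30, SE 0.29, adjusted p = 6.23e-05). In control muscle it was at 744, 1013 and 1057 CPM at day 7 and at 1482, 2064 and 2389.9 CPM at day 4 (log2 change -1.14, SE 0.28, adjusted p = 0.0244). Day 7 lay below day 4 in every library of both arms. Ppbp fell as well, by 2.24 in depleted cells (SE 0.56, adjusted p = 0.0109) and by 2.15 in control cells (SE 0.52, adjusted p = 0.0214) on the log2 scale. Of all genes, 8.72% were called lower in depleted and 2.75% in control muscle. Of the attractants, Cxcl2 in depleted and Cxcl1 in control muscle were called in the other direction. Cxcl2 was higher at day 7 in depleted muscle (log2 change 1.07, SE 0.19, adjusted p = 0.000491, where 10.7% were higher), with 1249 to 1715 CPM at day 7 and 624 to 969 CPM at day 4. In control muscle Cxcl1 was higher (log2 change 0.99, SE 0.23, adjusted p = 0.0118, where 4.49% were higher) and Cxcl2 had an adjusted p of 0.0519 (log2 change 0.62). Cxcl2 there was called by DESeq2 (adjusted p = 0.0206), with RLE factors (0.0496) and with no filter on low counts (0.000772). The sum of Cxcl2 and Cxcl3 changed by 1.04 in depleted (adjusted p = 0.000525) and by 0.59 in control muscle (adjusted p = 0.0603). Cxcl3 had log2 changes of 0.05 in depleted and -0.34 in control muscle and Cxcl5 of 0.76 and -0.15, none of them called (adjusted p of 0.616 to 0.942). The control call of Ppbp was lost without any 1 library other than day 4 replicate 1, that of Pf4 without any other than day 4 replicate 1 or day 7 replicate 3, and that of Cxcl1 without day 4 replicate 2 or day 7 replicate 1 (adjusted p of 0.0538 to 0.112). The depleted call of Ppbp was lost without day 7 replicate 1 or 2 (adjusted p = 0.0655 and 0.0654). With no filter on low counts the calls of Ppbp in both arms and of Pf4 in control muscle were lost (adjusted p of 0.088 to 0.176). Cxcl1 in depleted muscle had a log2 change of 0.48 (adjusted p = 0.167) and passed without day 4 replicate 3 (adjusted p = 0.0118).

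In heart all 6 log2 changes from day 4 to day 7 were below 0 in both arms. In depleted cells 4 genes were called lower, where 13.7% were, namely Cxcl2, Cxcl5, Ppbp and Pf4. Pf4 was at 879, 1303 and 1076 CPM at day 7 and at 2669, 2717 and 1537 CPM at day 4 (log2 change -1.21, SE 0.20, adjusted p = 0.000419). In control cells Cxcl5 and Pf4 were called lower, where 16.9% were. Pf4 there was at 1501, 1939 and 1329 CPM at day 7 and at 2319, 2537 and 2483 CPM at day 4 (log2 change -0.70, SE 0.20, adjusted p = 0.0115, and 0.0531 without WT4). The days did not overlap for Pf4 in either arm. Ppbp in depleted heart was at 5.14, 10.00 and 9.33 CPM at day 7 and 111, 151 and 36.5 CPM at day 4 (log2 change -3.74, SE 1.01, adjusted p = 0.0273), a call lost without any 1 library other than F3 (adjusted p up to 0.0943). In control heart its log2 change of -1.33 (SE 0.86, adjusted p = 0.284) was -3.16 without WT3 (adjusted p = 0.00975). Cxcl3, at 17.6, 52.2 and 5.95 CPM at day 7 and 94.4, 77.4 and 99.7 CPM at day 4 in control heart, had an adjusted p of 0.0528, and of 0.00531 without WT3, and DESeq2 called it (log2 change -1.97, adjusted p = 0.0099). Summed, Cxcl2 and Cxcl3 changed by -0.94 in depleted (adjusted p = 0.00526) and -0.41 in control heart (adjusted p = 0.159). Cxcl5 counts were few, 1 to 10 per library at day 7 and 6 to 21 at day 4, and its call in depleted cells was lost without F1, F3, FDG1 or FDG3 (adjusted p of 0.055 to 0.0681).

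In bone the later day was day 10. Cxcl2 in depleted bone was higher at day 10, at 484, 522 and 481 CPM, than at day 7, at 273, 214, 280.1, 72.2 and 74.1 CPM (log2 change 1.49, SE 0.44, adjusted p = 0.0422, where 7.13% were higher). The days did not overlap, but the call was lost without any day 10 library or day 7 replicate 2 or 5 (adjusted p of 0.0607 to 0.111) and with no filter on low counts (adjusted p = 0.109). Summed, Cxcl2 and Cxcl3 changed by 1.53 (SE 0.44, adjusted p = 0.0399). Cxcl1 and Cxcl3 in depleted bone had log2 changes of 1.64 and 1.80 and adjusted p of 0.0705 and 0.0551. Cxcl1 passed without day 7 replicate 1 or 4 (adjusted p = 0.0391 and 0.0409) and Cxcl3 without day 7 replicate 3 (adjusted p = 0.00557), and DESeq2 called both (adjusted p = 0.0471 and 0.0191). In control bone no chemokine gene was called by edgeR or DESeq2, and 1, Cxcl5, had an unadjusted p below 0.05, where 0.0393% of all genes were called. No chemokine gene had an interaction of arm and day called by edgeR, where of all genes 0.848% in skin, 2.41% in muscle, 0% in bone and 4.09% in heart did. Unadjusted p below 0.05 was reached by 1 chemokine gene in skin, 1 in muscle, 3 in bone and 0 in heart, and DESeq2 called the 1 in skin and 0 in the other tissues.

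**Figure D3:**
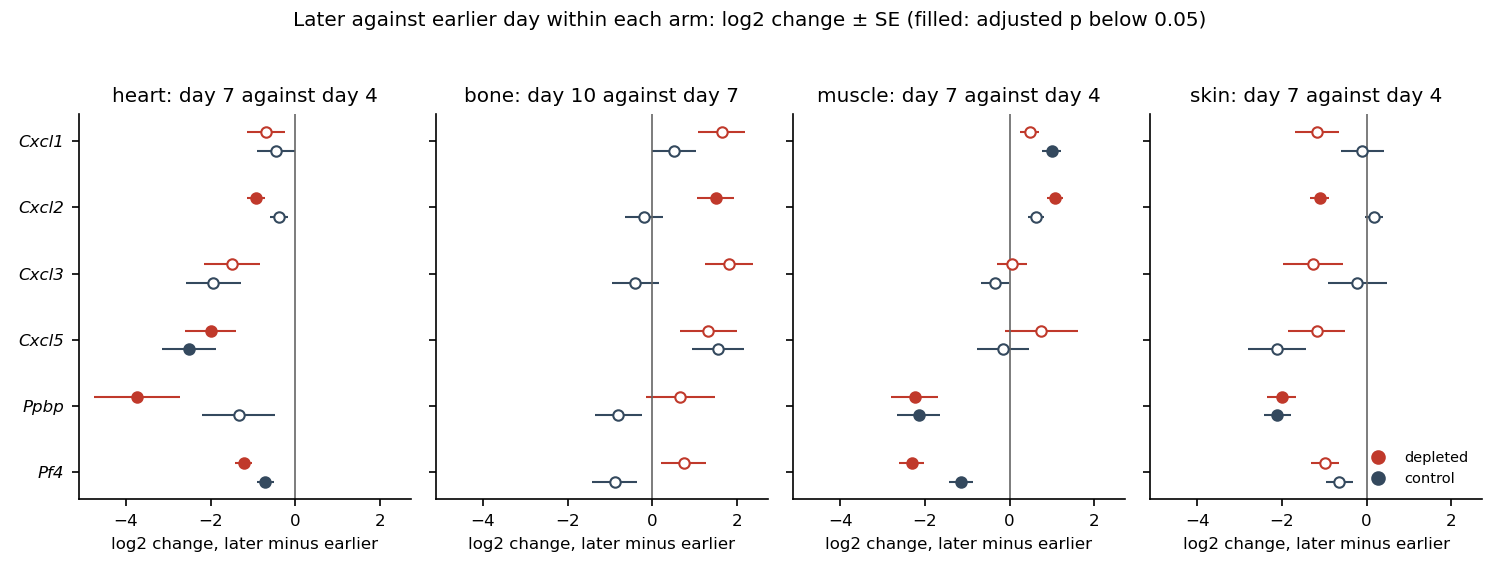
Log2 change of each chemokine gene, later minus earlier day (x axis), with its SE as a bar, in depleted and control cells of each tissue, from edgeR. Filled points have an adjusted p below 0.05. Pf4 and Ppbp lie below 0 in heart, muscle and skin in both arms, and Cxcl2 lies above 0 in muscle in both arms.

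In bulk libraries of sorted cells, fewer cells of a type and less RNA per cell cannot be told apart, so markers of other cells were set beside these values. Beside the counts of list genes that follow, the share of all genes called higher in depleted cells was 11% in bone at day 7, 8.95% in bone at day 10, 4.67% in muscle at day 7, 2.95% in skin at day 7, 2.12% in skin at day 4 and 1.58% in heart at day 7. The share called lower was 1.56% in heart at day 7 and 6.85% in heart at day 4, and for the others it stands above. The platelet and megakaryocyte list has 18 genes, of which 5 to 8 were tested per tissue. In bone at day 7 its sum was 89.4 CPM in depleted libraries (range 63.6 to 128) and 77.1 CPM in control libraries (57.4 to 102), while Pf4 was at 83.2 CPM in depleted and 812 CPM in control cells. Of 6 list genes tested there, Itga2b was higher, Gng11 lower and 4 not called (median log2 change 0.28, beside 0.00 for all genes). Gp1ba and Tubb1, which encode a platelet adhesion receptor chain and platelet tubulin, were at 0 in all control bone libraries of day 7. In muscle at day 7 the sum was 197 CPM in depleted (range 129 to 279) and 70.0 CPM in control libraries (67.1 to 75.2), with 5 of 8 tested genes higher and 0 lower (median log2 change 1.70), among them F5, Itga2b and Itgb3, while Pf4 was lower. In skin at day 7 it was 43.7 CPM in depleted (39.6 to 52.1) and 123 CPM in control libraries (99.5 to 167), with 1 of 7 tested genes higher and 2 lower. F5, for coagulation factor V, alone was at 4.86 CPM in depleted and 69.2 CPM in control cells there. In heart the list's sum lay between 42.3 and 85.6 CPM in every library. Tubb1 was at 0 in all 4 heart groups.

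The neutrophil list includes Elane, Mpo, Prtn3 and Ctsg, granule genes made by neutrophil precursors in bone marrow. Of 16 neutrophil genes tested in bone at day 7, 8 were higher and 0 lower in depleted cells (median log2 change 1.03, beside 0.00), and their sum was 19900 CPM (range 9491 to 29330) against 9970 CPM in control cells (6435 to 12890). At day 10, 8 were higher and 0 lower, with sums of 23650 and 8570 CPM in depleted and control cells. Lcn2, for an iron-binding protein of neutrophil granules, was at 718 ± 256 CPM in depleted and 236 ± 39.1 CPM in control bone at day 7 (log2 change 1.54, adjusted p = 0.000188). In muscle at day 7, 7 of 12 tested were higher and 0 lower, with sums of 2107 CPM in depleted and 235 CPM in control cells. In skin at day 7, 2 of 13 were higher and 1 lower, and the median log2 change was 0.834, beside 0.005. The sums went the other way and overlapped, at 840.2 CPM in depleted (range 350.3 to 1840) and 1373 CPM in control cells (1067 to 1979). In heart at day 7, 4 of 13 were higher and 0 lower (median log2 change 0.93, beside 0.00), with sums of 611 CPM in depleted (range 453 to 795) and 264 CPM in control cells (196 to 299.5). At day 4 in heart, 0 were higher and 3 lower, with sums of 703 CPM in depleted and 717 CPM in control cells. Resident macrophage genes, such as Folr2 and Cd163, were lower in 4 of 9 tested in depleted bone at day 7 (sums of 712 CPM in depleted and 924 CPM in control cells), in 6 of 9 in muscle at day 7 (654 CPM in depleted and 1485 CPM in control cells) and in 4 of 8 in heart at day 7 (1063 CPM in depleted and 1558 CPM in control cells), with none higher in these. In skin at day 7, 2 of 9 were higher and 0 lower (1274 CPM in depleted and 1216 CPM in control cells). Resident macrophage genes were also lower at day 4 in heart and skin, where no chemokine gene was called. In heart at day 4, 5 of 8 were lower (1112 CPM in depleted and 1698 CPM in control cells). In skin at day 4, 4 of 9 were lower (1291 CPM in depleted and 2320 CPM in control cells), where 3.57% of all genes were called in either direction. In bone at day 10, 4 of 9 were lower, and in muscle at day 4, 0 of 9 were called. Fibroblast genes, 8 tested, were lower for 2 in depleted bone at day 7 (sums of 922 CPM in depleted and 3098 CPM in control cells). Of the 10 monocyte and macrophage genes, which include Cd14, 6 were lower and 1 higher in depleted bone at day 7, with sums of 13000 CPM in depleted cells (range 11010 to 14790) and 19790 CPM in control cells (14640 to 23600). At day 10 in bone 4 were lower and 2 higher (10490 CPM in depleted and 14830 CPM in control cells), and in muscle at day 7, 1 was lower and 1 higher (10230 CPM in depleted and 14910 CPM in control cells). Genes of T and NK cells summed to 225 CPM in depleted and 81.0 CPM in control bone at day 7. The part of these cell types in the chemokine results was not tested.

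**Figure D4:**
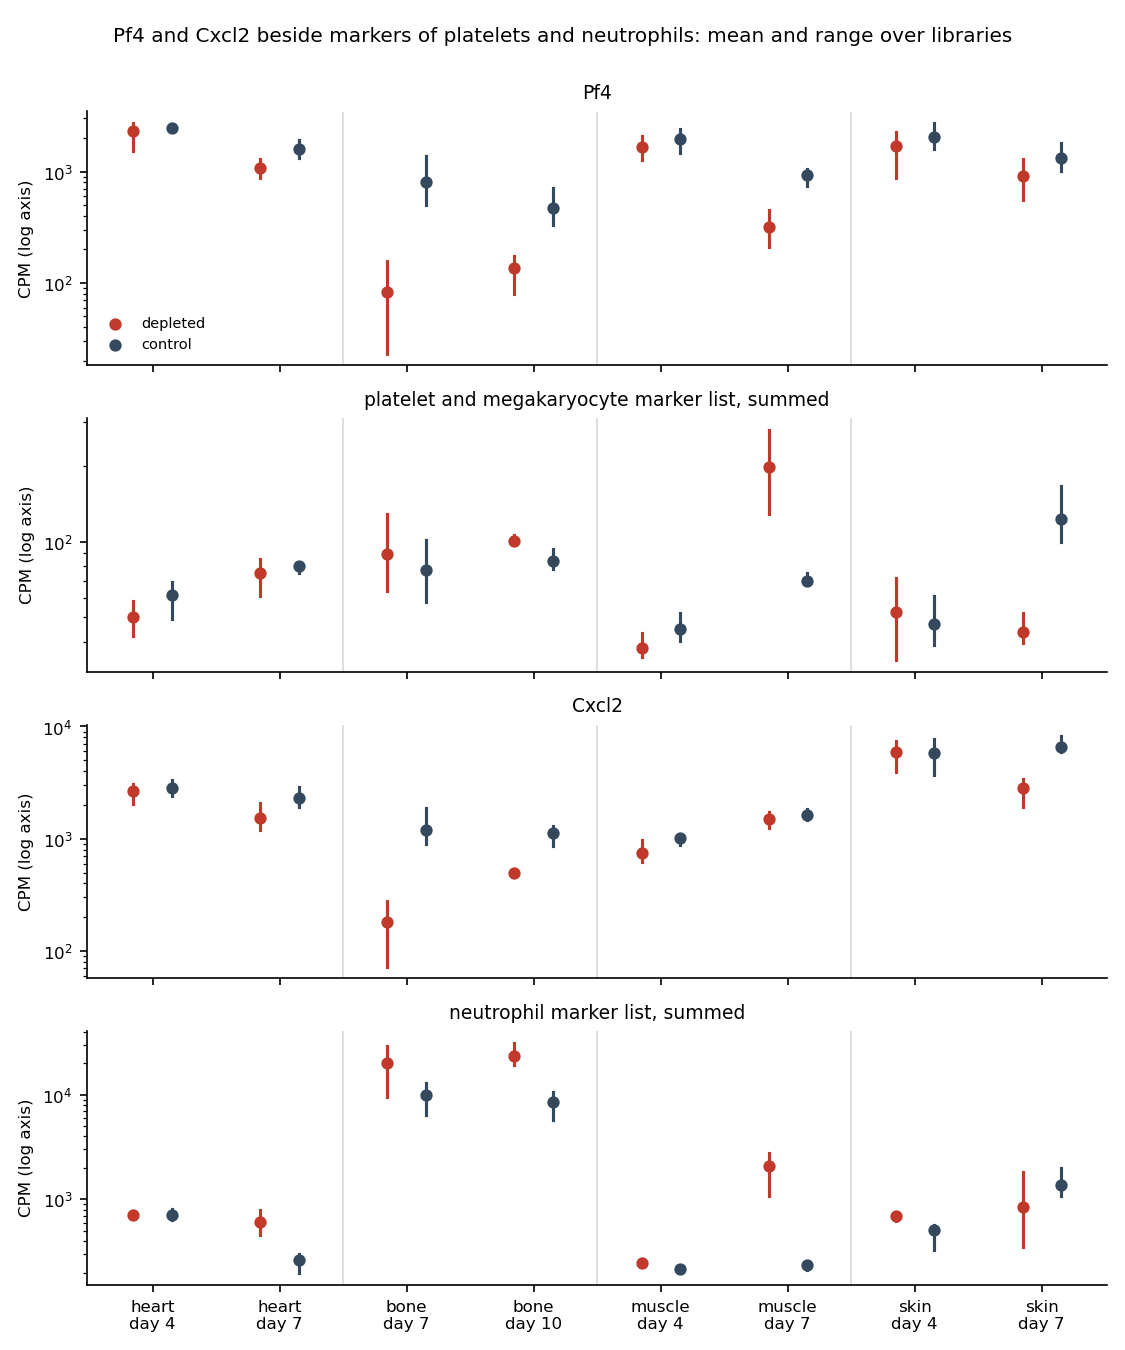
Mean (points) and range over libraries (lines) of Pf4, of the summed platelet and megakaryocyte list, of Cxcl2 and of the summed neutrophil list, in CPM on log axes, depleted left of control in each tissue and day. In bone at day 7 Pf4 is at 83.2 CPM in depleted and 812 CPM in control cells while the platelet list is at 89.4 CPM in depleted and 77.1 CPM in control cells, and in muscle at day 7 the platelet and neutrophil lists are higher in depleted cells.

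Cxcr2, the shared receptor of the attractants and itself a neutrophil gene, was higher in depleted bone at day 7 (11.7 ± 4.59 CPM against 2.96 ± 1.68 CPM in control bone, log2 change 1.87, adjusted p = 0.000489) and day 10 (log2 change 1.52, adjusted p = 0.0337), in muscle at day 7 (6.26 ± 0.852 CPM against 1.07 ± 0.332 CPM in control muscle, log2 change 2.67, adjusted p = 0.00053) and in skin at day 4 (log2 change 2.01, adjusted p = 0.0228). It was not called in the 4 other comparisons. Cxcr1 had at most 9 counts in any group.

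Signals that induce these genes and their feedback inhibitors were set beside them, in lists chosen with earlier results of these data known. In bone at day 7, 5 of 11 tested inducer genes were lower and 1 higher in depleted cells (median log2 change -0.50, beside 0.00). Il1b, for interleukin-1 beta, was at 118 ± 35.6 CPM in depleted and 203 ± 55.4 CPM in control cells (log2 change -0.83, SE 0.22, adjusted p = 0.00973). Tnf was at 11.9 ± 5.86 CPM in depleted and 27.4 ± 7.81 CPM in control cells (log2 change -1.24, SE 0.30, adjusted p = 0.00505), and Cd14, the co-receptor for endotoxin, at 273 ± 42.3 CPM in depleted and 727 ± 85.6 CPM in control cells (log2 change -1.46, SE 0.13, adjusted p = 2.57e-07). Of 10 genes of feedback and mRNA decay, 7 were lower and 0 higher (median log2 change -0.93), with Dusp1, a phosphatase, at -2.11, the interleukin-1 antagonist Il1rn at -1.98 and the NF-kB inhibitor Nfkbia at -1.01. In skin at day 7, 4 of 11 inducer genes and 6 of 10 feedback genes were lower and 0 higher. Tnf had a mean of 164 ± 24.9 CPM in control skin, and in depleted skin it was lower (log2 change -1.70, SE 0.21, adjusted p = 3.19e-05), and Il1b was at 785 ± 183 CPM in depleted and 1332 ± 178 CPM in control skin (log2 change -0.74, SE 0.21, adjusted p = 0.0447). The NF-kB targets Tnfaip3 and Nfkbiz each fell by 1.43 on the log2 scale in depleted skin.

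Muscle at day 7 showed lower Tnf (16.5 ± 0.993 CPM in depleted, 40.2 ± 4.36 CPM in control cells, adjusted p = 0.000366) and Il1b (191 ± 43.3 CPM in depleted, 327 ± 13.9 CPM in control cells, adjusted p = 0.0169), with Cxcl2 at a log2 change of 0.00. Of its 11 inducer genes 3 were lower and 1, Il1a, higher, and of 10 feedback genes 2, Il1rn and Il1r2, were higher. In bone at day 10, 1 inducer gene was lower and 1 higher of 11, and 5 feedback genes were lower and 1 higher of 10. In heart at day 7, 3 of 10 feedback genes, Zfp36, Nfkbiz and Dusp1, were lower. Of 10 inducer genes in heart edgeR called 0 at day 4 and at day 7, with 2 and 3 at an unadjusted p below 0.05, and of 10 feedback genes it called 0 at day 4, with 1. At day 4 in muscle edgeR called 0 of both lists, with 1 inducer and 1 feedback gene at an unadjusted p below 0.05, and in skin 0, with 4 and 1.

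Other inflammatory chemokines were not all lower in bone at day 7. Of 9 tested, 4 were lower, 1 higher and 4 not called. Ccl7, which attracts monocytes, was at 108 ± 55.0 CPM in depleted and 426 ± 56.2 CPM in control cells (log2 change -2.01, SE 0.30, adjusted p = 0.000187), and Cxcl16 was at 44.2 ± 18.5 CPM in depleted and 200.3 ± 34.5 CPM in control cells (log2 change -2.21, SE 0.23, adjusted p = 1.75e-06). Cxcl9, an interferon-induced attractant of T cells, was higher, at 51.5 ± 74.2 CPM in depleted and 2.50 CPM in control cells (log2 change 4.36, SE 0.93, adjusted p = 0.00424). In skin at day 7 Cxcl9 was the 1 of these 9 genes called, at 57.0 ± 23.4 CPM in depleted and 3.11 ± 1.44 CPM in control cells (log2 change 4.16, SE 0.47, adjusted p = 3.46e-05), in cells whose Cxcl2 was lower. Csf2, for the growth factor GM-CSF, was higher in depleted skin at day 4 (15.4 ± 3.30 CPM against 0.194 ± 0.388 CPM in control skin, adjusted p = 0.000314) and at day 7 (7.28 ± 6.13 CPM against 1.52 ± 0.949 CPM in control skin, adjusted p = 0.0449).

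The genes whose log2(CPM + 1) ran most like a chemokine over the 44 bone, muscle and skin libraries were named by Pearson's r, as a description, since the libraries share tissue, arm and day. For Cxcl2 they were Hilpda (r = 0.96), Socs3 (0.933) and Ehd1 (0.931). For Cxcl1 they were Errfi1 (0.931), Crem (0.916) and Cd14 (0.909), and for Cxcl3 Pdpn (0.925), Carmil1 (0.908) and Errfi1 (0.891). Pf4 ran most like Ninj1 (0.945), Dab2 (0.944) and Hmox1 (0.932), and Ppbp like Clec4d (0.87), Ccl2 (0.852) and Lrp1 (0.851). Pf4 and Ppbp had r = 0.912 with each other, while Pf4 and Cxcl5 had 0.0664. Cxcl5 had no r above 0.771 with a tested gene (Vim). Over the 12 heart libraries Pf4 ran most like Fignl1 (0.966), F13a1 (0.931) and H2-Q10 (0.92), Cxcl2 like C5ar1 (0.897), Fignl1 (0.894) and Dab2 (0.894), and Ppbp like Ednrb (0.927), Igfbp6 (0.915) and Camkk1 (0.904). Cxcl3 in heart ran most like Slpi (0.943), Naa10 (0.936) and Mmp9 (0.935), Cxcl5 like Isy1 (0.968), Orc3 (0.954) and Ccr1 (0.95), and Cxcl1 like Pigb (0.821), Zfp719 (0.81) and Gm20406 (0.793).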

How the data were processed

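Sorted monocytes/macrophages were sequenced after dT-primed reverse transcription with molecular identifiers, per the labels' protocols, which favours transcript 3' ends. The submitters' processing notes name STAR, Salmon, featureCounts and limma, with GRCm38 for heart and both GRCm38 and GRCm39 for the other tissues. No source used here says whether identifiers were collapsed. The authors deposited whole read counts per gene for heart, and estimated counts per gene for bone, muscle and skin, of which 19.4% of values above 0 were not whole. These were rounded for the count tests. In the heart table some column names say day 4 and the rest give no day, and the rest were read as day 7. CPM is the count over the library total and carries no composition scaling, while the tests used TMM factors.

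Genes passing filterByExpr were fitted with edgeR 4.0.16 (robust quasi-likelihood test, TMM) in R 4.3.3, per tissue over its 4 groups, or over all bone, muscle and skin groups for tissue contrasts. P-values were adjusted by Benjamini and Hochberg over all genes tested, with a threshold of 0.05. Each SE is the log2 change over the root of F. Alternatives were DESeq2 1.42.0, limma-voom (limma 3.58.1), RLE factors, no filter, the compared groups alone, an Rn18s-rs5 covariate, a replicate block, each library left out, and Cxcl2 and Cxcl3 summed. The fits were tested on simulated data. Depth and library number limit precision, and count intervals and floors cover counting error only. From each list up to 3 called genes of the largest change were named, if a group mean reached 5 CPM. Others named for their place in a result, such as Il1b in muscle, were chosen after their values were seen. The genes and lists were chosen with earlier results of these data known.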

Additional observations from a re-analysis of the deposited data

Results flagged for a closer look

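Among 36 gene and group sets of 4 or 5 libraries, 2 held a library far from the others, and chance gives about 1 in 20. Cxcl1 was at 94.931 CPM in control bone replicate 4 of day 7, where the other 4 libraries lay between 47.4 and 56.7 CPM. Cxcl2 was at 8192.7 CPM in control skin replicate 2 of day 7, where the other 3 lay between 5972 and 6303 CPM. Both are control libraries on the high side, and the calls of Cxcl1 in bone and of Cxcl2 in skin held without them.

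The depletion difference at day 7 differed between tissues by the interaction term of edgeR for 3 genes. Between bone and muscle it differed by -2.755 for Cxcl2, -3.132 for Ppbp and -1.873 for Pf4 on the log2 scale. Between bone and skin it differed by -1.531 for Cxcl2, -3.353 for Ppbp and -2.77 for Pf4. Each value is larger in size than its SE by over 3 times, and both contrasts share the bone libraries. Between bone and muscle the call of Pf4 was lost in 12 of 16 omissions of 1 library (adjusted p up to 0.172). That of Ppbp was lost in 1 (adjusted p = 0.149).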

How the results depend on the processing

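No log2 change that was called turned its sign under any alternative. The 5 calls in bone at day 7, Pf4 in muscle at day 7 and Cxcl2 in skin at day 7 held without any 1 library. Whether replicate numbers pair the bone, muscle and skin libraries was not settled (r above 0.1 in 6 of 22 pairs, range -0.168 to 0.248, 10 pairs best with their own number). Heart columns carry names in place of the labels' replicate numbers, so no block was fitted for heart. In the other tissues the replicate block gave chemokine counts of 0 in bone at day 10 (1 without it), 2 for control bone against muscle (1), 0 for depleted bone over days (1), 2 for control skin over days (1), and 1 for the arm by day term in muscle and in skin (0). In bone at day 7 it added Cxcl5 (adjusted p = 0.0271) and in control muscle over days Cxcl2 (0.0232). For control bone against skin it lost Cxcl3 (log2 difference -1.35, adjusted p = 0.0629) and added Cxcl5 (1.88, adjusted p = 0.0131).

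With no filter on low counts, the counts were 2 in heart at day 7 (0), 1 in muscle at day 4 (0), 0 in muscle at day 7 (1), 1 in skin at day 4 (0), 0 for depleted bone over days (1), 3, 5 and 5 for control bone against muscle (1), bone against skin (3) and muscle against skin at day 7 (3), 5 and 6 for the depletion difference in bone against muscle and skin (3 each), 2 and 1 for that in muscle against skin at days 7 and 4 (0 each), and 1 for the arm by day term in heart and in skin (0). DESeq2 gave 2 in bone at day 10, 1 in heart at day 7, 2 for control bone against muscle, 3 for depleted bone over days and 1 for the arm by day term in skin. RLE factors gave 1 for that term. In bone at day 10 the Rn18s-rs5 covariate gave 0 and the compared groups alone 4.

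Leaving out 1 library gave 5 in bone at day 7, 0 to 1 in bone at day 10 and in heart at day 7, 0 to 2 for control bone against muscle and for depleted bone over days, 2 to 4 for control bone against skin, 2 to 3 for depleted and 1 to 4 for control heart over days, 2 to 4 for depleted and 0 to 3 for control muscle over days, 1 to 4 for the depletion difference in bone against muscle and 0 to 1 for the arm by day term in skin. Over all genes, the Rn18s-rs5 covariate gave 1166 calls in bone at day 7 (2994) and 78 at day 10 (2182). In heart at day 7 the 356 calls became 754 with no filter, 618 by DESeq2 and 599 by limma-voom. The 20 calls in muscle at day 4 became 190 and 93 with no filter and DESeq2, the 450 in skin at day 4 became 719 with no filter, and the 5 for control bone over days became 176 and 61 with no filter and DESeq2. By these 2 settings the arm by day term had 583 and 490 calls (311) in muscle and 319 and 264 (107) in skin, and in bone the 0 became 166 and 201, and 36 with the replicate block. Skin over days had 632 and 509 (330) in depleted and 514 and 457 (286) in control cells, and muscle against skin 629 with no filter (398) at day 7 and 224 and 90 (38) at day 4 for the depletion difference. Without 1 library, the all-gene counts, and with them the shares printed beside the chemokine genes, moved by over 1.5 times in several comparisons. The lowest were 124 of 356 in heart at day 7 (without control WT4), 686 of 1259 in heart at day 4 (control W4), 1181 of 2182 in bone at day 10 (depleted replicate 1), 2 of 20 in muscle at day 4 (depleted replicate 3), 265 of 450 in skin at day 4 (depleted replicate 4) and 514 of 784 in skin at day 7 (depleted replicate 2). Over days they were 557 of 1547 in depleted bone (day 10 replicate 3), 0 of 5 in control bone (day 7 replicate 4), 527 of 935 in control muscle (day 7 replicate 1), 112 of 286 in control skin (day 4 replicate 3) and 205 of 330 in depleted skin (day 7 replicate 4). For the arm by day term they were 154 of 311 in muscle (control day 7 replicate 3) and 68 of 107 in skin (control day 7 replicate 2), with up to 162 in skin and 27 (0) in bone. For control muscle against skin they were 1089 of 1711 at day 7 and 988 of 1761 at day 4 (muscle replicate 1 of each day), and for the depletion difference there 251 of 398 at day 7 (depleted muscle replicate 2) and 11 of 38 at day 4 (control muscle replicate 1), with up to 64. Control bone over days had up to 12. In bone and muscle at day 7 no such change exceeded 1.5 times. Pf4's span over heart groups was 2.46 with TMM sizes (2.25). The causes were not tested.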
